A study of Mus musculus with 24 samples.

Results

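The nuclear-encoded subunits of respiratory complexes II, III, IV and V were followed in mouse liver under 4 diets. Members were all probe sets whose single gene symbol in the platform annotation began with Sdh and the letter a, b, c or d, or with Uqcr, Cox4 to Cox8 or Atp5. The rule used no measured value and gave 97 probe sets of 50 genes, out of 18193 genes that had a probe set of their own. It took in 4 subunits of complex II, 8 genes of complex III, 17 of complex IV and 17 of complex V, together with 4 assembly factors of complex II (Sdhaf1 to Sdhaf4), which are described apart from the subunits. A single probe set read each of 19 genes, and 31 genes had 2 or more, up to 6.

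Liver RNA came from 24 female mice of the NMR-1 strain, 8 weeks old at the start, each hybridised to 1 Affymetrix array after 2 weeks of feeding. The labels name no mutant allele and no drug, and set the groups apart by diet and processing batch. Each diet group held 6 mice, split into 3 of batch 1 and 3 of batch 2. Animals of the pellet group stayed on the standard feed on which they had been raised. Vegetables, fruit and yogurt made up the chimpanzee diet, cooked canteen meals the cafeteria diet, and fast food alone the fast food diet. The cafeteria and fast food groups were pooled as human diets (12 mice) in the comparisons with the chimpanzee diet and with pellets, as the study's methods do. The labels do not tie mice to litters, and p-values measure the spread between these mice.

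Complexes II to V sit in the inner membrane of the mitochondrion. Succinate dehydrogenase (complex II) takes electrons from the citric acid cycle, the cytochrome bc1 complex (III) passes them to cytochrome c, cytochrome c oxidase (IV) hands them to oxygen, and ATP synthase (V) makes ATP from the proton gradient that results. Liver relies on this chain to burn fatty acids and to pay for the synthesis of glucose and urea, and some subunits of complex IV exist in separate forms for liver and for muscle.

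All values are log2 intensities as deposited, and a difference is a difference of log2 values with its standard error (SE). A signal at or under the median of the whole table, 3.15, was treated as unread. A probe set counted as measured when it lay above that level in at least 6 of the 24 arrays, which 84 of the 97 member probe sets did, and a gene was read from its probe set of highest mean. This left 48 of the 50 members among 13385 genes tested. Some of the 48 lay near that level, such as Cox7a1 with a mean of 3.08. Cox7c, a small subunit of complex IV, and Cox7b2, a form of another small subunit, were not tested. Their 3 probe sets lay between 2.33 and 3.09 in all mice, so the arrays gave no usable reading of either gene. Of the 48, 38 members had a mean of 8 or more, a level that 1149 of the 13385 genes reached.

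Arrays of batch 1 had a wider range of signal than those of batch 2, with a 90th percentile of 6.50 ± 0.07 (SD, n = 12) against 6.04 ± 0.20. The 4 lowest were cafeteria batch 2 replicate 3, fast food batch 2 replicate 2, and chimpanzee batch 2 replicates 1 and 2. The difference between the 3' and 5' control probe sets of beta-actin, a sign of RNA quality, averaged 1.08 under the chimpanzee diet, 0.85 under human diets and 0.75 under pellets. In exact permutation tests within batches it was larger for the chimpanzee diet than for human diets (adjusted p = 0.00893 over 9 tests) and than for pellets (adjusted p = 0.0225). The 9 hepatocyte markers read by the array, such as albumin, were all tested, and their summed level, which the most abundant of them dominate, lay between 14.45 and 14.92 in every mouse. As deposited, 1 of these markers was called between chimpanzee and pellets, where 10.4% of all genes were. None was called under human diets against chimpanzee or pellets, where 1.49% and 4.98% of all genes were. Hnf4a, a transcription factor of hepatocytes, exceeded its pellet level in chimpanzee-diet mice by 0.59 ± 0.11 (adjusted p = 0.000809, limma). Tat, an enzyme of tyrosine breakdown, had -0.31 ± 0.14 there (adjusted p = 0.182, limma). Between human diets and chimpanzee Tat had 0.55 ± 0.14 (adjusted p = 0.0537, limma), and so passed in neither. In a piece of liver, fewer cells of a type and less RNA per cell cannot be told apart.

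Against pellets, human diets went with higher values of nearly all members, by small amounts. The difference was positive for 44 of 48 members, with a median of 0.14 (1.10-fold), whereas 47.7% of all genes tested were positive, with a median of -0.01. All 38 members with a mean of 8 or more were positive, beside 56.9% of all genes at that level. They were also positive in both batches taken alone, which held for 48.9% of all genes at that level. By the adjusted p of limma 2 of 48 members passed (4.17%), near the 4.98% called among all genes. Both were higher under human diets and none was lower, where 2.15% of all genes were called higher and 2.82% lower. At an unadjusted p under 0.05, 11 members (22.9%) were higher and none lower, where 6.44% of all genes were higher and 14.5% differed either way. The SE of a single member ran from 0.06 to 0.12, not far under the shift itself.

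Against the chimpanzee diet the same number of members, 44 of 48, had a positive difference under human diets, with a median of 0.13 (1.10-fold). Of all genes tested 51.4% were positive, and of those with a mean of 8 or more 71.6%, with a median of 0.10. No member passed the adjusted p of limma, where 1.49% of all genes did (1.15% higher and 0.344% lower), and 13 of 48 (27.1%) had an unadjusted p under 0.05, beside 14.3% of all genes. Of these 13, 12 were higher under human diets, as were 9.99% of all genes. This shift depended on the scaling of the arrays. After cyclic loess 34 of 48 members were positive with a median of 0.04, and after quantile normalisation 38 with a median of 0.06, and 11 members took another sign under at least 1 scaling. Against pellets, by contrast, all 48 members kept their sign under cyclic loess, quantile normalisation and the 90th percentile as a covariate, with a median of 0.12 after either normalisation. The comparisons share the 12 mice on human diets.

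Under human diets, markers of Kupffer and stellate cells also leaned to 1 side in each comparison, though few passed the test. Of 10 markers of Kupffer cells and macrophages, 1 was positive under human diets against pellets, with a median of -0.33, and 9 against chimpanzee, with a median of 0.28, and none passed the test. Their summed level ran from 9.90 to 10.80 on pellets, 8.80 to 10.14 on the chimpanzee diet, 8.76 to 10.62 on the cafeteria diet and 9.70 to 10.70 on fast food. Of 8 stellate cell markers, 2 were positive against pellets, with a median of -0.08, and 8 against chimpanzee, with a median of 0.20 (6 after cyclic loess). The collagen gene Col3a1 passed, at 0.86 ± 0.21 against chimpanzee and at -1.22 ± 0.26 between chimpanzee and pellets. The summed stellate level ran from 9.51 to 10.39 on pellets, 9.23 to 10.24 on the chimpanzee diet, 9.49 to 10.48 on the cafeteria diet and 9.76 to 10.57 on fast food. No marker of either list had a mean over all mice under the unread level. Means within single diets were not compared with that level. Of 8 endothelial markers, 2 were positive under human diets against pellets and 5 against chimpanzee, with medians of -0.05 and 0.03. As deposited none of them was called in any comparison, and none of 3 bile duct markers tested. The part of these markers in the members' differences was not tested.

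Between the chimpanzee diet and pellets the members shared a direction less, as deposited, than under human diets. The difference was positive for 32 of 48, with a median of 0.03, beside 48.7% of all genes. A single adjusted p passed, for a lower value, where 10.4% of all genes passed (2.93% higher and 7.43% lower). At an unadjusted p under 0.05 the members numbered 2, of which 1 was higher, beside 22.1% of all genes in either direction and 6.88% higher. After cyclic loess 39 and after quantile normalisation 41 members were positive, and 13 took another sign under at least 1 scaling. Of the rest, 29 were positive and 6 negative throughout. The share of all genes positive after these normalisations is not given here.

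**Figure D1:**
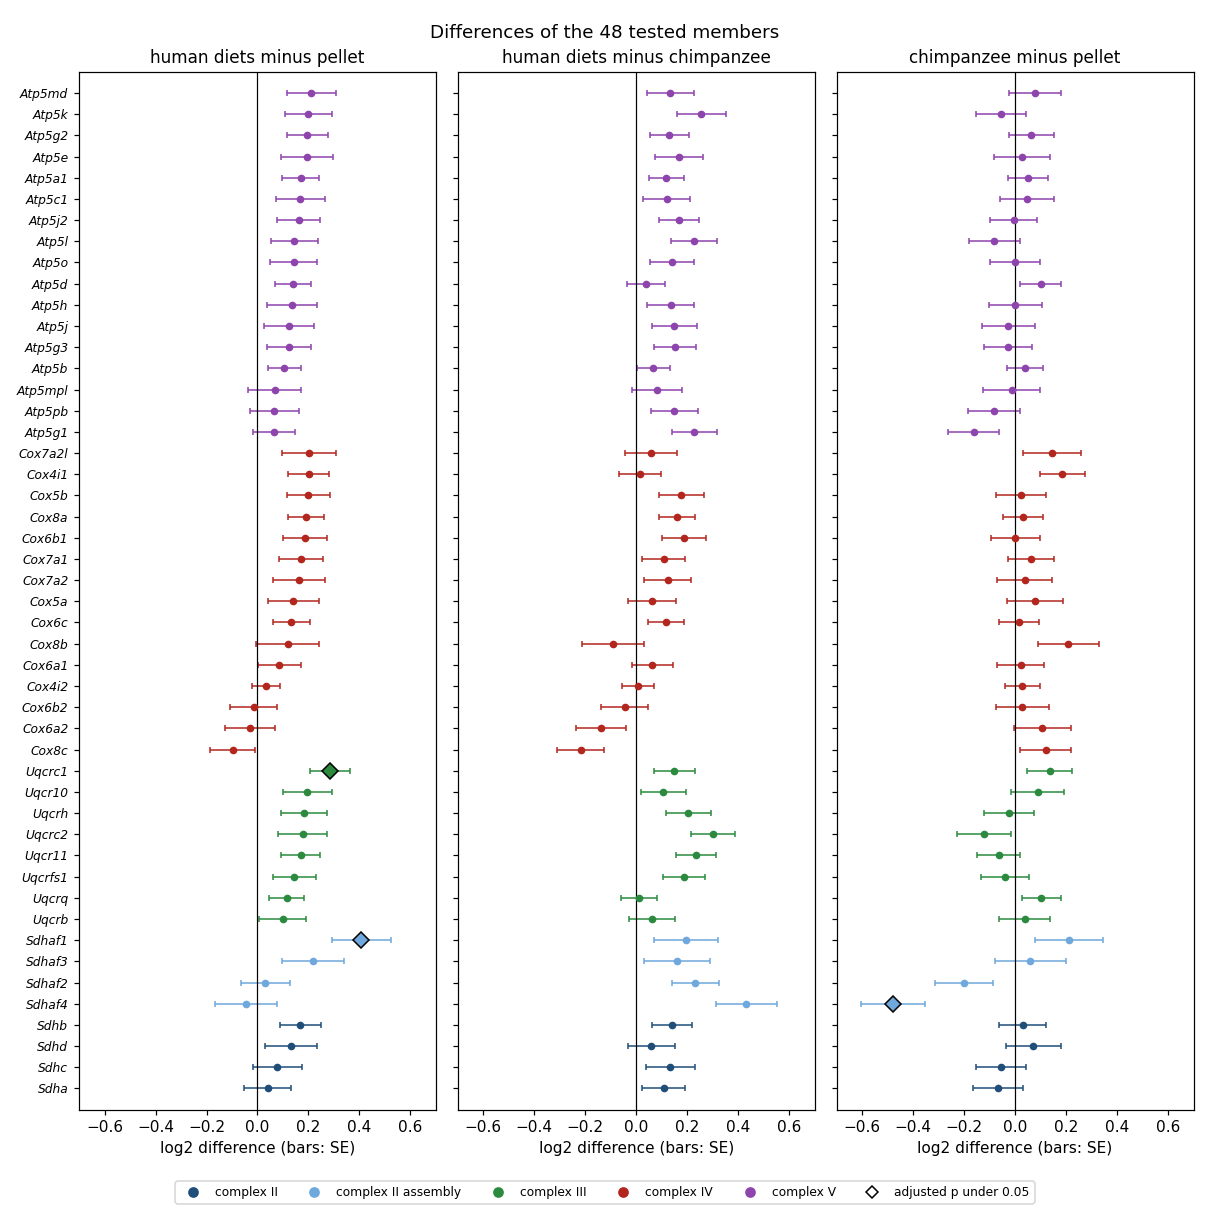
Log2 differences of the 48 tested members, grouped by complex, for human diets minus pellet, human diets minus chimpanzee and chimpanzee minus pellet. Points are the fitted differences, bars their SE, and black-edged diamonds mark an adjusted p under 0.05. In the first panel 44 points lie to the right of 0, and in the third the points of complexes II, III and V lie on both sides of it.

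The means of the 4 diets were also put in order for each member. A human diet had the highest mean and pellet or chimpanzee the lowest in all 38 members with a mean of 8 or more, and in 48.5% of all genes at that level. Cafeteria was highest in 29 of the 38 and fast food in 9, beside 341 and 280 of the 1149 genes at that level. Pellet was the lowest diet in 24 and chimpanzee in 14, beside 360 and 523 of the 1149. After cyclic loess 29 of the 38 still had a human diet highest and another diet lowest, beside 35.5% of all genes at that level. Pellet had the highest mean in none of the 48 members, as deposited, after cyclic loess and after quantile normalisation.

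Averaged over the 48 members, each centred on its own mean, the level was -0.07 ± 0.13 (SD, n = 6) in pellet mice, -0.06 ± 0.10 under the chimpanzee diet, 0.08 ± 0.11 under the cafeteria diet and 0.05 ± 0.17 under fast food. Single mice ran from -0.22 to 0.08 on pellets, from -0.21 to 0.07 on the chimpanzee diet, from -0.07 to 0.19 on the cafeteria diet and from -0.28 to 0.19 on fast food, so the diets overlapped. The lowest mouse of all was fast food batch 2 replicate 2, in which 6 of 48 members lay above their own mean, while in the other fast food mice of batch 2 46 and 41 did. This array was among the 4 with the lowest 90th percentile. Across the 12 mice of batch 1 the members' level went with the 90th percentile of the array (Pearson r = 0.67), and in batch 2 less so (r = 0.39). These are descriptions over mice of several diets, and their part in the diet differences was not tested beyond the covariate fit.

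**Figure D2:**
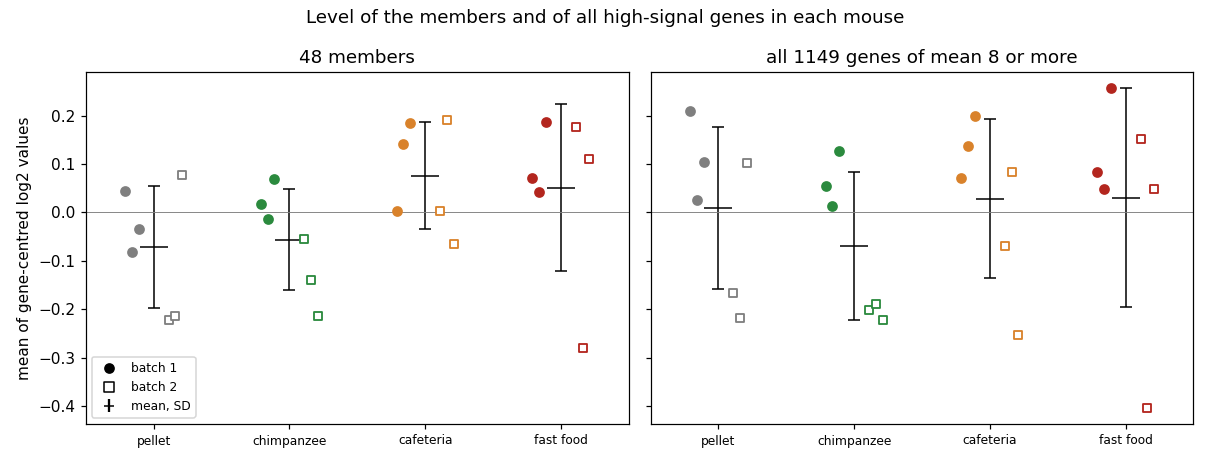
Mean of gene-centred log2 values in each of the 24 mice, for the 48 members (left) and for all 1149 genes with a mean of 8 or more (right). Filled circles are batch 1, open squares batch 2, and the bars give the mean and SD of 6 mice. The members' means lie above 0 for both human diets and below 0 for pellet and chimpanzee, while the pellet mean of all high-signal genes is 0.01.

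Among the 4 diets, 1 of 48 members differed (2.08%), against 9.00% of all genes. This was Sdhaf4, an assembly factor that helps the flavin-carrying subunit of succinate dehydrogenase join the complex (adjusted p = 0.0261, limma). Its values on pellets were 6.79 at the lowest, 7.06 at the median and 7.17 at the highest. Under the chimpanzee diet they were 6.31, 6.50 and 6.77, below every pellet mouse. Cafeteria mice had 6.32, 6.95 and 7.15, and fast food mice 6.39, 7.19 and 7.23. All human-diet mice but cafeteria batch 2 replicate 3 and fast food batch 2 replicate 2 lay above the highest chimpanzee mouse, and both exceptions are among the arrays of lowest range. Sdhaf4 fell by 0.48 ± 0.13 (SE) from pellets to the chimpanzee diet (1.39-fold, adjusted p = 0.0154, limma), with -0.43 in batch 1 and -0.52 in batch 2. It was the 1 member called in this comparison. The difference between human diets and the chimpanzee diet was 0.43 ± 0.12, of the same sign in both batches, with an adjusted p of 0.0758. Human diets and pellets differed by -0.05 ± 0.12. The call between chimpanzee and pellets was lost with the beta-actin difference as a covariate (-0.36, adjusted p = 0.508, limma), a measure that differed between the same diets.

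Sdhaf1 and Uqcrc1 were the members called between human diets and pellets. Sdhaf1 helps the iron-sulfur subunit Sdhb to receive its clusters. Pellet mice had 4.17, 4.50 and 4.86 (lowest, median, highest), cafeteria mice 4.09, 5.00 and 5.17, and fast food mice 4.42, 4.94 and 5.27. Chimpanzee-diet mice had 4.10, 4.81 and 5.03, so that their median lay between while their range overlapped the other groups. In batch 1 every human-diet mouse was above every pellet mouse, and in batch 2 the groups overlapped through cafeteria replicate 3 at 4.09. The difference was 0.41 ± 0.12 (1.33-fold, adjusted p = 0.0479), with 0.38 in batch 1 and 0.43 in batch 2.

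Uqcrc1, a core subunit on the matrix side of complex III, had 8.68, 8.95 and 9.05 on pellets. The chimpanzee diet gave 8.68, 9.03 and 9.35, the cafeteria diet 8.75, 9.25 and 9.40, and fast food 8.72, 9.23 and 9.33. As for Sdhaf1, all human-diet mice exceeded all pellet mice in batch 1 and the groups overlapped in batch 2. Uqcrc1 rose by 0.29 ± 0.08 (1.22-fold, adjusted p = 0.0391), by 0.29 in batch 1 and 0.28 in batch 2. Both calls lay close to the threshold. Leaving out single mice moved the adjusted p of Uqcrc1 between 0.0110 and 0.104 and that of Sdhaf1 between 0.00307 and 0.124, and the lowest p of each came without cafeteria batch 2 replicate 3. Most omissions ended the calls: that of Uqcrc1 stood in 6 of 18 fits with a mouse left out and that of Sdhaf1 in 2 of 18. The 2 fits that kept Sdhaf1 left out fast food batch 2 replicate 2 or cafeteria batch 2 replicate 3, both arrays of low range.

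**Figure D3:**
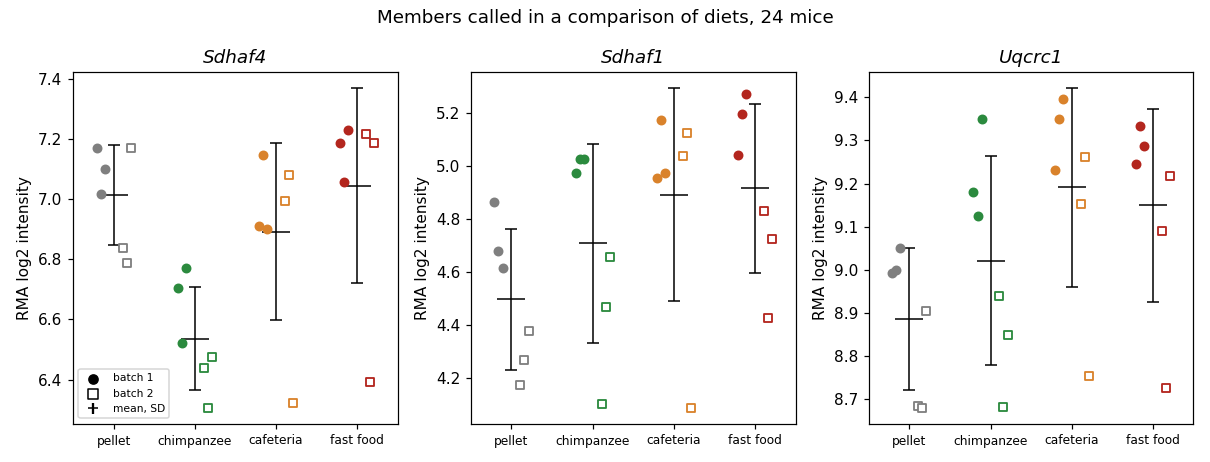
RMA log2 intensity of Sdhaf4, Sdhaf1 and Uqcrc1 in each mouse by diet, with filled circles for batch 1 and open squares for batch 2. Bars give mean ± SD (n = 6). Sdhaf4 is lower under the chimpanzee diet than in every pellet mouse, and pellet mice have the lowest means of Sdhaf1 and Uqcrc1.

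No member was called between the cafeteria and fast food diets, where 0.00747% of all genes were, and 1 of 48 had an unadjusted p under 0.05 (limma). Differences ran from -0.25 for Cox8b, close to the unread level, to 0.17 for Atp5k, with a median of 0.04.

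No subunit of complex II itself was called. Sdha, which carries the flavin and binds succinate, had a difference of 0.11 ± 0.09 between human diets and chimpanzee, and of 0.04 ± 0.09 between human diets and pellets. Sdhb, which carries the iron-sulfur clusters, had 0.14 ± 0.08 and 0.17 ± 0.08. The membrane anchors Sdhc and Sdhd had 0.13 ± 0.10 and 0.06 ± 0.09 against chimpanzee, and 0.08 ± 0.10 and 0.13 ± 0.10 against pellets. Pellet mice had 10.16, 10.29 and 10.55 for Sdhb (lowest, median, highest), chimpanzee-diet mice 10.15, 10.37 and 10.58, cafeteria mice 10.36, 10.55 and 10.72, and fast food mice 10.20, 10.49 and 10.58. These groups overlapped, and against chimpanzee Sdhb differed by -0.01 in batch 1 and 0.29 in batch 2. For Sdha pellet mice had 9.66, 9.92 and 10.15, chimpanzee-diet mice 9.60, 9.84 and 10.07, cafeteria mice 9.57, 9.97 and 10.11, and fast food mice 9.40, 10.04 and 10.20, again overlapping. None of the 4 subunits passed the test in any comparison, and their adjusted p against chimpanzee and pellets was 0.357 or more under human diets. Sdhd turned negative against chimpanzee after cyclic loess (-0.04) and quantile normalisation (-0.04). Assembly factors were less alike than subunits. Against pellets, Sdhaf1 rose, Sdhaf3, which works beside it on Sdhb, had 0.22 ± 0.12, Sdhaf2, which attaches the flavin to Sdha, had 0.03 ± 0.10, and Sdhaf4 had -0.05 ± 0.12.

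In complex III all 8 members were positive under human diets against pellets, from 0.10 for Uqcrb to 0.29 for Uqcrc1. Against chimpanzee they ran from 0.01 for Uqcrq to 0.30 for Uqcrc2, the other core subunit. Uqcrc2 on the chimpanzee diet had a lowest value of 8.68, a median of 8.98 and a highest of 9.08, and cafeteria mice had 9.04, 9.19 and 9.41. Fast food mice had 8.87, 9.34 and 9.47, and pellet mice 8.86, 8.98 and 9.33. Its difference of 0.30 ± 0.09 had an adjusted p of 0.0875, and of 0.0307 without fast food batch 2 replicate 2. A second probe set gave 0.28. The Rieske iron-sulfur subunit Uqcrfs1 had 0.19 ± 0.08 against chimpanzee and 0.15 ± 0.09 against pellets. For Uqcrq and Uqcrb the sign against chimpanzee turned under cyclic loess.

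The genes of ATP synthase all had the same sign under human diets. All 17 members of complex V were positive against pellets, from 0.07 to 0.21, and against chimpanzee, from 0.04 to 0.26, and none passed the test. Against chimpanzee 3 of them, Atp5b, Atp5d and Atp5mpl, changed sign under at least 1 scaling. The catalytic head subunits Atp5a1 and Atp5b, which bind nucleotides, had 0.17 ± 0.07 and 0.11 ± 0.06 against pellets. Genes of the proton-carrying ring, Atp5g1, Atp5g2 and Atp5g3, encode the same mature protein and had 0.07 ± 0.08, 0.19 ± 0.08 and 0.12 ± 0.09. Atp5k, the e subunit of the membrane part, had the smallest p of this complex against chimpanzee (0.26 ± 0.09, adjusted p = 0.195). Its chimpanzee-diet mice ran from 9.54 to 10.00 with a median of 9.84, pellet mice 9.72, 9.86 and 10.07, cafeteria mice 9.91, 10.18 and 10.43, and fast food mice 9.62, 10.02 and 10.17, all overlapping. The other probe sets of Atp5k gave 0.19 and 0.29. Between chimpanzee and pellets, where 9 of 17 members were positive, Atp5g1 had the smallest p of complex V at -0.16 ± 0.10 (adjusted p = 0.369). Its pellet mice had 9.69, 9.85 and 10.11, chimpanzee-diet mice 9.44, 9.80 and 9.87, cafeteria mice 9.79, 9.98 and 10.13, and fast food mice 9.55, 9.93 and 10.10.

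In complex IV 12 of 15 tested members were positive under human diets against pellets, with a median of 0.14, and 11 against chimpanzee, with a median of 0.06. All 15 were also positive between chimpanzee and pellets as deposited, beside 48.7% of all genes, though by 0.04 at the median, and none passed. Cox8b, close to the unread level, had the largest of these differences (0.21). Cox4i2, Cox6b2 and Cox7a1, also near that level, turned negative with the 90th percentile as a covariate. Cox4i1 encodes a form, read here in liver, of the subunit through which ATP inhibits the oxidase. It had 10.16, 10.29 and 10.47 on pellets and 10.32, 10.49 and 10.68 on the chimpanzee diet. Cafeteria mice had 10.48, 10.56 and 10.66, and fast food mice 10.10, 10.51 and 10.67. Against pellets the difference was 0.20 ± 0.08 under human diets (adjusted p = 0.209) and 0.19 ± 0.09 under the chimpanzee diet (adjusted p = 0.217), and between human diets and chimpanzee it was 0.02 ± 0.08, which turned to -0.07 under cyclic loess. Both differences from pellets passed the test after cyclic loess (adjusted p = 0.0482 for human diets and 0.00346 for chimpanzee, limma) and after quantile normalisation. Cox7a2l, a factor that joins complexes III and IV, had a like pattern, with 0.20 ± 0.11 and 0.14 ± 0.11 against pellets. Between human diets and chimpanzee it had 0.06 ± 0.10, which turned to -0.04 under both normalisations. Cox5a, Cox6a1 and Cox6b2 also took another sign between human diets and chimpanzee under at least 1 scaling.

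The forms of complex IV subunits known to occur in liver, and Cox7a2l, were read in every mouse. Most muscle and testis forms lay near the unread level. Cox4i1, Cox6a1, Cox6b1, Cox7a2, Cox7a2l and Cox8a read 7.76 or more in all 24 mice. The heart and muscle forms Cox7a1 and Cox8b had highest values of 3.62 and 3.86 and passed the level of 3.15 in 8 and 11 arrays. Cox4i2, known from lung, ran from 2.94 to 3.35 and passed it in 13 arrays, and Cox6b2, known from testis, from 3.05 to 3.74 in 21. Cox6a2, another muscle form, read 3.81 to 4.95 on 1 probe set, while its second probe set passed the level in 5 arrays. These values lie where the arrays scarcely read, and levels of different probe sets are not compared. Of 8 striated muscle markers 4 were tested, and 5 had a mean over all 24 mice under the level.

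Cox8c, the testis form of the smallest subunit, was read at 5.12 to 6.12 by 1 probe set in all 24 mice, while its other probe set passed the level in 3. It was 1 of the 4 members with a negative difference between human diets and chimpanzee. Chimpanzee-diet mice had 5.50, 5.63 and 6.12, cafeteria mice 5.12, 5.45 and 5.80, fast food mice 5.18, 5.53 and 5.81, and pellet mice 5.43, 5.64 and 5.72. The difference of -0.22 ± 0.09 had an adjusted p of 0.276.

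**Figure D4:**
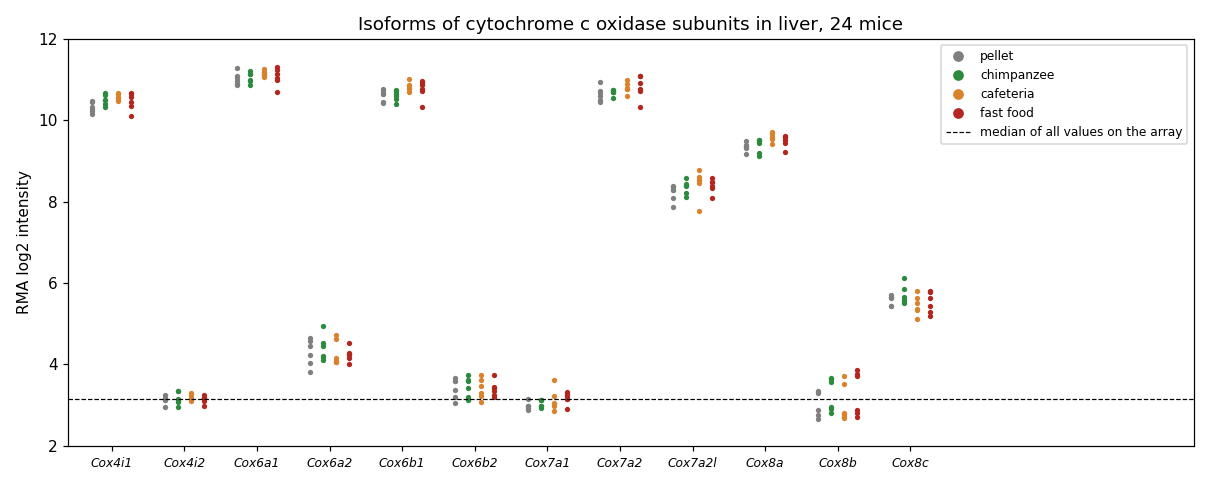
RMA log2 intensity of 12 isoform genes of complex IV in the 24 mice, coloured by diet, with the median of all values (3.15) as a dashed line. Cox4i1, Cox6a1, Cox6b1, Cox7a2, Cox7a2l and Cox8a lie far above the line in every mouse, and Cox4i2, Cox6b2, Cox7a1 and Cox8b lie around it.

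Where several probe sets read a gene they mostly gave the same sign. Of 18 genes with 2 or more measured probe sets of mean 8 or more, all probe sets had 1 sign in 18 genes for human diets against pellets and in 17 against chimpanzee, but in 10 for chimpanzee against pellets. For 8 of the 48 tested members the probe set was of the _s_at or _x_at kind, whose probes may match other transcripts.

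The members did not respond alike to batch. In 39 of 48 the mean was higher in batch 1, by 0.11 at the median. Complex II subunits were higher by 0.38 and the assembly factors by 0.40 at the median, complex III by 0.16, complex V by 0.11 and complex IV by 0.02. Largest of all was Cox8b at -0.70, which read above the level of 3.15 in 11 arrays, all of batch 2. Cafeteria batch 2 replicate 1 was the exception in that batch, at 2.67. Batch was a term in each fit, and the smallest unadjusted p of a diet-by-batch interaction among the members was 0.260, for Cox8b, in an F test over all 24 mice.

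Promoters of the members were also read, and their part in the diet differences was not tested. RefSeq windows of 300 bases (build GRCm38.p6, 250 before to 50 after the start of the gene) were found for 39 of the 50 members. The core bound by NRF1, a factor known for mitochondrial genes, is a palindrome shown in capitals for Atp5k below, in which the T may be any base. It occurred on either strand in 12 of 39 (30.8%) and in 5.19% of all 27025 genes with a window. The letters CCGGAAG, the core of ETS factors such as GABPA, occurred in 16 (41.0%) against 9.93%. Either was found in 23 members (59.0%), among them Sdhaf1, Sdhaf4 and Uqcrc1, against 14.0% of all genes. The YY1 letters AAGATGGC occurred in 3 members (7.69%, against 3.19%), the GC box GGGCGG in 18 (46.2%, against 38.2%), CCAAT in 20 (51.3%, against 41.1%) and TATAAA in 5 (12.8%, against 15.7%). A match describes letters and not a bound site, and the 27025 genes were not limited to those tested in liver. The 150 bases before the start are given below for the 3 called members, and for Atp5k as a member whose NRF1 letters lie in that stretch. Each is printed 5′ to 3′ on the strand of the gene, with capitals for any of these 6 sets of letters, on either strand.
Sdhaf4 (chr1:24005641-24005790, minus strand): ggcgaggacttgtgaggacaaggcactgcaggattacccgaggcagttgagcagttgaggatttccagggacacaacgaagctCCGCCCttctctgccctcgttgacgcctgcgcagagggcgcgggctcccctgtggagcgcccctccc
Sdhaf1 (chr7:30322376-30322525, minus strand): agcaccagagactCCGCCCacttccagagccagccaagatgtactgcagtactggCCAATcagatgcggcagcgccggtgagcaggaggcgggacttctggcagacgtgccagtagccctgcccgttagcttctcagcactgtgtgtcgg
Uqcrc1 (chr9:108936498-108936647, plus strand): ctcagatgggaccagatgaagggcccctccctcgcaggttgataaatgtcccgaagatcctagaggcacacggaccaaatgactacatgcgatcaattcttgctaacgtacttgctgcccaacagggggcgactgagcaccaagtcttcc
Atp5k (chr5:108434400-108434549, minus strand): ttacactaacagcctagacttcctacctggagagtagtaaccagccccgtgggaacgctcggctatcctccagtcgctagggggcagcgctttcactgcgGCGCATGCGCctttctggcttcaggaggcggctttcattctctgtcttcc
Capitals mark a GC box in Sdhaf4, a GC box and a CCAAT box in Sdhaf1 and the NRF1 letters in Atp5k, 50 to 41 bases before the start. No set of letters is in this stretch of Uqcrc1. The NRF1 letters of Uqcrc1 and Sdhaf4 and the ETS letters of Sdhaf1 lie elsewhere in the longer window.

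Other parts of the same pathway gave larger single differences. Of 33 complex I subunits tested, 32 were positive under human diets in both comparisons, with medians of 0.21 against chimpanzee and 0.15 against pellets. Ndufs4 (0.41 ± 0.08) and Ndufb3 (0.51 ± 0.11) passed against chimpanzee, with adjusted p of 0.0186 and 0.0271, and 4 subunits, Ndufs7, Ndufa5, Ndufb10 and Ndufv2, passed against pellets. After cyclic loess 28 were positive against chimpanzee, with a median of 0.11 and 5 called higher, and 32 against pellets, with 12 called higher, the 6 above among them. Here and below, counts called after cyclic loess are given without the share of all genes called in that setting. As deposited, under human diets 1.15% of all genes were called higher against chimpanzee and 2.15% against pellets. The counts called in these lists are descriptions and not results about the lists. In the citric acid cycle, of which complex II is a member, 2 of 12 genes rose against pellets (6 higher and 1 lower after cyclic loess). Fh1 (fumarase), which takes up the product of complex II, rose by 0.65 ± 0.13 and Suclg1, which makes its substrate, by 0.36 ± 0.09. Suclg1 was also the 1 gene of this list to rise against chimpanzee, by 0.42 ± 0.09.

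Of 31 other subunits and assembly factors of complexes III to V, 2 were higher and none lower under human diets than under the chimpanzee diet. They were Atpif1, the inhibitor of ATP synthase (0.80 ± 0.16), and Cox16 (0.34 ± 0.09). Against pellets Coa6, which helps copper reach complex IV (0.68 ± 0.15), and Uqcc1, which serves the assembly of complex III (0.43 ± 0.10), rose. After cyclic loess the calls numbered 5 against chimpanzee and 7 against pellets, all higher. Between chimpanzee and pellets 4 were lower and none higher, where 7.43% of all genes were called lower and 2.93% higher. After cyclic loess the list had 5 called lower and 5 higher here. Atpif1 fell by 0.78 ± 0.17, Tmem70 by 0.58 ± 0.16, Atpaf1 by 0.36 ± 0.10 and Coa3 by 0.39 ± 0.12, of which the first 3 serve ATP synthase, and all 4 passed under each scaling. In this comparison 5 of 10 markers of Kupffer cells and macrophages were also lower, and none higher (2 lower after cyclic loess). The part of these markers in the differences was not tested.

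Among 17 genes that control mitochondrial gene expression none passed under human diets against either group as deposited. After cyclic loess 1 was higher and 1 lower against chimpanzee, 1 was higher against pellets, and between chimpanzee and pellets 4 were higher and 2 lower. Esrra, a nuclear receptor known to act on these genes, rose by 0.34 ± 0.10 from pellets to the chimpanzee diet (adjusted p = 0.0350, limma), and passed under each scaling. No gene of 7 that exchange adenine nucleotides or phosphate passed in any comparison as deposited, though 3 did after cyclic loess between chimpanzee and pellets, and their medians under human diets were 0.08 against chimpanzee and 0.12 against pellets. The 1 mitochondrially encoded gene named on the array, ND5 of complex I, had 0.20 ± 0.08 against chimpanzee and 0.00 ± 0.09 against pellets, and passed neither. The mitochondrially encoded subunits of complexes III to V were not analysed here.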

How the data were processed

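Liver RNA of 24 mice was hybridised to Affymetrix whole-genome mouse arrays, 1 per mouse, without pooling. The deposited values are log2 intensities that the authors made with the rma method of the affy package (version not given in the sources used here), which corrects background, normalises probes by quantiles and gives 1 value per probe set. The columns do not share 1 distribution, and how the arrays were grouped in that step is not stated. The number of arrays limits the precision.

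Of 45101 probe sets, 64 controls were set aside, and in the platform annotation 34945 had 1 gene symbol, 932 several and 9160 none. A probe set was kept if 6 or more arrays exceeded the overall median, and the one of highest mean stood for its gene, leaving 13385 genes. limma 3.58.1 (R 4.3.3) was run with diet and batch, on 18 mice for human diets against chimpanzee or pellet and on all 24 otherwise, with Benjamini-Hochberg adjustment over all genes and a threshold of 0.05. The procedure was tested on simulated data.

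The members, gene lists and named genes (called members, the member of smallest p of each complex, and tissue isoforms of complex IV) were chosen with earlier results of these data known. Alternatives changed the scaling, filter, probe set, batch, array quality, test and single mice. Promoter windows are RefSeq's (GRCm38.p6).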

Additional observations from a re-analysis of the deposited data

Results flagged for a closer look

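Of 80 groups of 6 mice (20 named genes in 4 diets), 7 held a mouse that lay far from the other 5, a gap that chance gives in about 1 group in 20. In cafeteria batch 2 replicate 3 these were Sdhaf1 at 4.09, Sdhaf4 at 6.32 and Cox7a2l at 7.76, all below the group. In fast food batch 2 replicate 2 they were Sdhaf4 at 6.39 and Sdha at 9.40, also below. Both arrays are among the 4 of lowest 90th percentile. The others were Cox7a2 at 10.54 in chimpanzee batch 2 replicate 3, below its group, and Cox7a1 at 3.16 in pellet batch 2 replicate 2, above its group and close to the unread level.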

How the results depend on the processing

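As deposited, 1 member differed among the 4 diets, 0 were called between human diets and chimpanzee, 2 between human diets and pellets, 1 between chimpanzee and pellets and 0 between cafeteria and fast food. The last stayed at 0 in every setting run. In the order of the first 4 comparisons the counts were 7, 1, 3 and 4 after cyclic loess, 9, 2, 8 and 5 after quantile normalisation, 11, 8, 8 and 2 with array weights, 6, 1, 5 and 3 with the 90th percentile as a covariate, 7, 2, 9 and 2 without the 4 arrays of lowest 90th percentile, and 3, 5, 4 and 1 by the methods' procedure, an unmoderated model with unadjusted p under 0.01. They were 0 in all 4 with batch left out, with batch 2 alone and with the beta-actin difference as a covariate. Between human diets and pellets the count was 1 with no filter, with every probe set as a feature and with the probe set of largest interquartile range, and 0 with batch 1 alone and with an intensity trend. Leaving out single mice gave 0 to 5 among the 4 diets, 0 to 3 between human diets and chimpanzee, 0 to 4 between human diets and pellets, and 1 throughout between chimpanzee and pellets. Without fast food batch 2 replicate 2 the first 3 counts were 5, 3 and 4. The share of all genes called in each of these settings is not given here. A larger count of members is therefore not read as a result about them. The cause of these moves was not tested.

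The members' median difference against chimpanzee under human diets was 0.13 as deposited and ran from 0.04 after cyclic loess to 0.19 in batch 2 alone. Against pellets it ran from 0.12 to 0.19, and for chimpanzee against pellets from -0.003 to 0.09. The fall of Sdhaf4 from pellets to chimpanzee kept its direction throughout, with adjusted p of 0.00106 to 0.560, and passed with each of 24 mice left out. The adjusted p against pellets ran from 0.000600 to 1.00 for Uqcrc1 and from 0.000383 to 0.925 for Sdhaf1.

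With batch and replicate number as a replicate block, the calls between human diets and pellets fell to 0 (Uqcrc1 0.0764, Sdhaf1 0.0747), and the other counts were 1, 0 and 1. No pairing by replicate number was seen on average. Over 36 same-numbered pairs the deviations correlated at -0.01 on average, and at 0.005 over other numbers. Single same-numbered pairs ran from -0.63 to 0.41, and 12 exceeded 0.1. Such values cannot exclude a pairing by litter, to which the labels do not tie mice.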
